A study of Mus musculus with 21 samples.

Results

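Heated testes lacking Mageb4 were compared with heated wild-type testes. The comparison takes 9 of the 21 RNA sequencing libraries of the series, 5 from heated knockouts and 4 from heated wild types, chosen by their labels. Of 55573 entries in the expression table, the 18456 with a mean of at least 1 TPM (a transcript abundance corrected for length and scaled to the same total in each library) over these 9 libraries were tested. All animals were male C57BL6 mice, and each library came from whole testis. The heated groups were sampled 72 h after heat shock, and the unheated background consisted of 6 wild-type and 6 knockout libraries. The labels call the libraries biological replicates. The sources used here give neither the knockout allele nor the age of the animals, and nothing on the temperature or length of the heat shock. Whole testis mixes all its cell types.

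Mageb4 belongs to the MAGE genes, which are mostly active in germ cells and tumours and whose proteins bind ubiquitin ligases. The testis makes sperm from spermatogonia through spermatocytes, which undergo meiosis, and spermatids, which first stay round and then condense and grow a tail. Sertoli cells nurse these germ cells inside the tubule, and Leydig cells between the tubules make testosterone. Germ cells in meiosis and shortly after it are known to be the most sensitive to heat, and Sertoli cells engulf those that die. Spermatids also store many messenger RNAs for use late in their development.

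Testis markers were high in all 9 libraries: Prm2, which packs sperm DNA, stood between 13880 and 24509 TPM, and Insl3, a Leydig cell hormone, between 2431 and 4249 TPM. Wild-type replicate 3 also held epididymal transcripts. Crisp1, a secreted protein of the epididymis, was 2126 TPM there and at most 0.62 TPM in the other 8 libraries. Adam7 was 136 TPM and Rnase9 114 TPM in that library against at most 0.06 TPM in each of the others, while Lcn8, Lcn10 and Gpx5, further epididymal genes, were listed at 0 in it. On the first principal component of the 9 libraries, with 82.0% of the variance, the knockouts lay between 37.9 and 75.5 and the wild types between -99.5 and -51.8. Wild-type replicate 1 was the wild-type library nearest to the knockouts, and replicate 3 stood apart on the second component (5.57% of the variance).

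The targeted gene was checked first. Mageb4 spans chromosome X from 86250254 to 86305093 (mm10) and is read from the minus strand. Its values were 7.86, 8.18, 7.82 and 8.26 TPM in the heated wild types and 0.11, 0.12, 0.09, 0.15 and 0.13 TPM in the heated knockouts. All 9 libraries matched their labels in this gene, and the difference was -3.01 in log2(TPM + 1) (2-sided exact permutation p = 0.00794, adjusted 0.00794 over 3 genes, the smallest p that 5 against 4 allows). Mageb10-ps, a pseudogene at 86299922 to 86301328 on the same strand inside the Mageb4 span, moved with it. It stood at 20.77, 20.98, 21.48 and 21.56 TPM in wild type and at 2.02, 1.77, 1.24, 1.19 and 2.13 TPM in the knockout, 12.7-fold lower. Without heat it was 4.73 TPM in wild type and 1.07 TPM in the knockout. The sources used here do not say whether the authors' quantification could tell reads of the pseudogene from those of Mageb4. Of the neighbouring genes outside the span, the 2 most abundant were still measured in the knockout. Nr0b1, which encodes the nuclear receptor DAX1, averaged 39.6 ± 4.08 TPM (SD, n = 4) across the wild types but 27.8 ± 2.91 TPM (SD, n = 5) across the knockouts, and Mageb7-ps was 61.1 ± 5.10 and 33.3 ± 3.73 TPM.

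**Figure D1:**
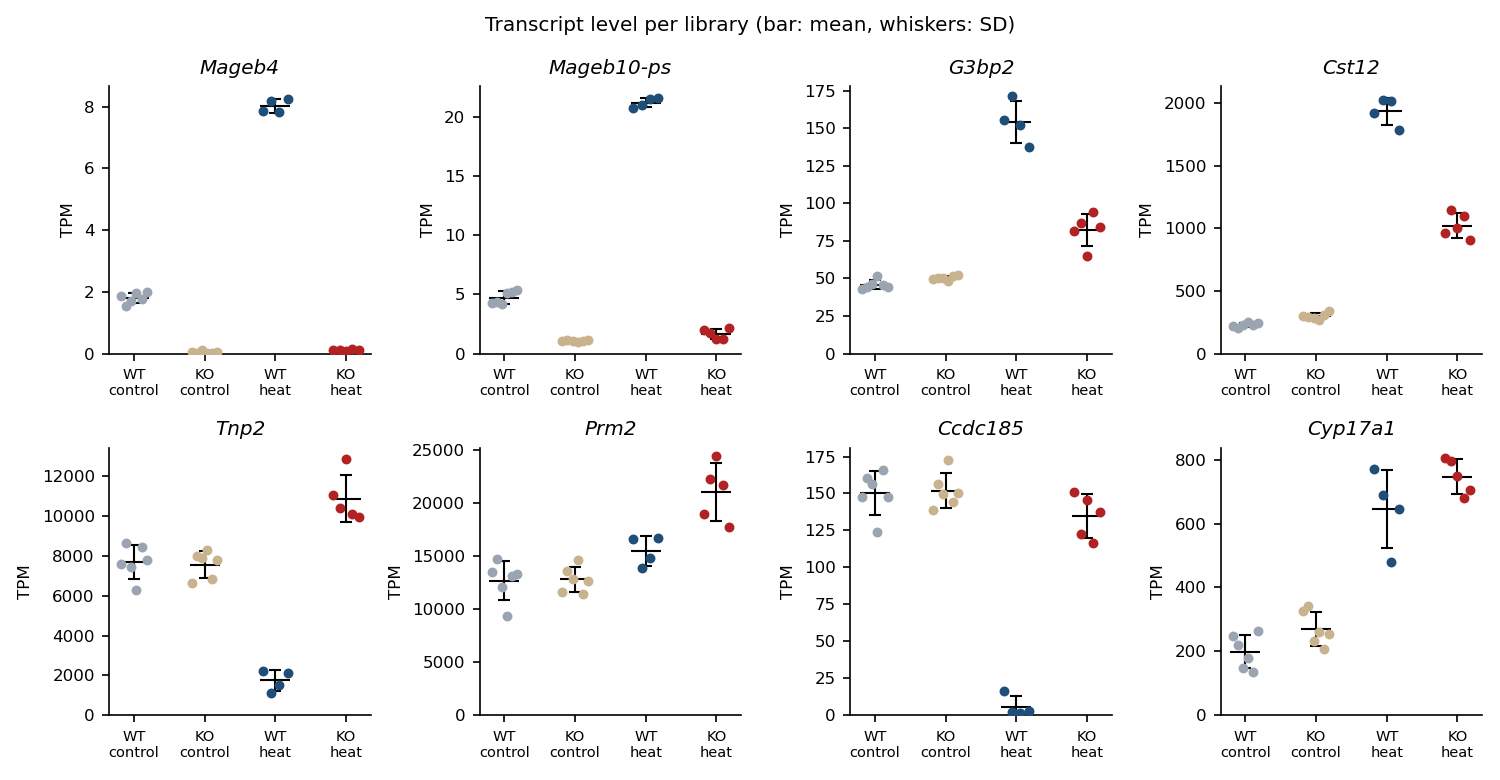
Transcript level in TPM (vertical axes, from 0) of 8 genes in each library, grouped as unheated control and heated wild type (WT) and knockout (KO); points are libraries, bars means and whiskers SD. Mageb4 and Mageb10-ps are low in both knockout groups, Ccdc185 is at most 16.1 TPM in heated wild type and at least 116 TPM in the heated knockout, and the Cyp17a1 values of the heated groups overlap.

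Most of the transcriptome differed between the heated genotypes. A gene was called where its adjusted p was under 0.05 (limma on log2(TPM + 1), Benjamini-Hochberg over all genes tested), and 14864 of 18456 were called (80.5%). Of these, 5459 were higher in the knockout (29.6% of genes tested) and 9405 lower (51%). The rises were larger than the falls: 3016 genes were at least 2-fold higher on the log2(TPM + 1) scale (16.3%) and 1222 at least 2-fold lower (6.62%). In 13505 genes the 5 knockout values and the 4 wild-type values did not overlap (73.2%), 5045 of them higher (27.3%) and 8460 lower (45.8%). Without wild-type replicate 3, 5368 genes were higher (29.1%) and 9220 lower (50.1%), together 79.2% of genes tested. The share of calls in each direction depended on the scaling of the libraries. As deposited, 36.7% of calls were higher and 63.3% lower, and with median-of-ratios scaling 49.3% were higher and 50.7% lower (6674 genes or 36.2% of those tested, and 6866 or 37.2%, together 73.4%). Median-of-ratios scaling moved the median difference of all genes from -0.29 to -0.06, a shift of 0.23. It turned no call around, but 2539 calls of lower genes were lost. With quantile normalization 5389 genes were higher (29.2%) and 9501 lower (51.5%), together 80.7%. Differences below are on the deposited TPM. List counts below stand beside the shares of all genes, 29.6% higher and 51% lower as deposited, and 36.2% and 37.2% with median-of-ratios scaling. Where median-of-ratios scaling ended calls in a list of mostly lower genes, both counts are given, and named genes whose call it changed are marked.

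Heated knockouts mostly lay between heated wild types and unheated testes. Among the 5459 genes called higher, the knockout mean of 4187 (76.7%) was between the mean of the 12 unheated libraries and the heated wild-type mean, and that of 1272 (23.3%) was above both. Among the 9405 called lower, 7512 (79.9%) lay between and 1890 (20.1%) below both. These counts share the heated knockout libraries with the comparison and are a description. The genotype difference was tested against the unheated genotype difference with an interaction term over all 21 libraries, and 15049 genes were called (81.5%), of which 5515 had the higher knockout difference after heat (29.9%) and 9534 the lower (51.7%).

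Genes of round spermatids, the haploid cells that have just left meiosis, were higher in the knockout for 28 of 29 members, with a median difference of 2.61 in log2(TPM + 1) against -0.29 over all genes. Sox30, a transcription factor of the switch to the haploid programme, read 18.4, 7.75, 8.49 and 11.8 TPM in wild type and 81.5, 64.4, 71.5, 64.4 and 84.3 TPM in the knockout. The groups did not overlap, with a difference of 2.62 ± 0.21 (SE, limma adjusted p = 4.99e-06), and unheated testes held 106 TPM in wild type. Spata25 went from 10.5 TPM to 72.0 TPM (group means). Acrv1, a protein of the acrosome, the enzyme cap of the sperm head, was 27.7, 6.08, 4.91 and 8.50 TPM in wild type and 109, 75.0, 87.6, 68.8 and 167 TPM in the knockout. Its 8.60-fold difference became 15.6-fold without wild-type replicate 1, the highest of its group. Tex101 was the member against the rest, at 464 TPM in wild type and 379 TPM in the knockout (-0.29 ± 0.08, adjusted p = 0.00471), a call lost with median-of-ratios scaling (-0.02). In whole tissue, fewer cells of a type and less RNA per cell cannot be told apart, here and in every list below.

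The genes that build the sperm head and tail were higher almost throughout. All 29 genes of tektins, dyneins and radial spokes, the parts of the beating tail core, were called higher (median 1.58). For the acrosome and fusion with the egg 24 of 26 were higher (median 2.33), for the outer dense fibre and fibrous sheath that stiffen the tail 21 of 22 (median 1.32), and for the CatSper calcium channel and other sperm ion transport 17 of 19 (median 1.82). Izumo3, a sperm head membrane protein, stood at 18.1, 5.73, 9.22 and 12.8 TPM in wild type and at 114, 82.9, 95.5, 76.7 and 103 TPM in the knockout, 8.24-fold higher. Ropn1, a fibrous sheath protein, was 142, 56.1, 74.3 and 98.1 TPM in wild type and 811, 672, 760, 641 and 773 TPM in the knockout. Every knockout library exceeded every wild-type one for both genes. Rsph9, a radial spoke protein, was 6.31-fold higher (adjusted p = 3.27e-06), yet its 38.7 TPM in the heated knockout stayed under the 133 TPM of unheated wild type. Catsperz, a subunit of the calcium channel, was likewise 8.84-fold higher than in heated wild type but held 153 to 213 TPM against 652 TPM in unheated wild type. Hvcn1, a proton channel that leukocytes also use, was lower by 0.40 ± 0.15 (adjusted p = 0.0314). That call was lost with median-of-ratios scaling, under the replicate block (-0.39), without wild-type replicate 1 (-0.24) and without knockout replicates 1, 3 or 5 (-0.38, -0.37 and -0.39). Of the testis-specific serine kinases and germ-cell glycolytic isozymes 16 of 18 were higher (median 1.19), among them Tssk2 with 276 TPM in wild type and 640 TPM in the knockout.

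Condensing spermatid genes were higher in part. Of 27 members 20 were called higher and none lower, with a median of 0.62, and with median-of-ratios scaling 26 were called higher. Tnp2 on chromosome 16 (10787936 to 10788660) encodes a transition protein that replaces histones before the protamines do. It read 2219, 1100, 1513 and 2133 TPM in heated wild type and 11062, 10440, 12870, 10098 and 9964 TPM in the heated knockout, 6.25-fold higher (2.69 ± 0.19, adjusted p = 3.31e-06). Tnp1, the other transition protein, was 3886, 1168, 2309 and 3453 TPM in wild type and 21067, 17695, 21119, 16308 and 18551 TPM in the knockout. Prm1 was 2.88-fold higher and Prm2 1.36-fold higher (adjusted p = 0.00229). These 4 genes exceeded not only heated wild type but all 12 unheated libraries in each heated knockout. The unheated means of Tnp2 were 7701 TPM in wild type and 7569.5 TPM in the knockout. Other late genes were called only with median-of-ratios scaling (Odf1 at 0.30 and Smcp at 0.38): Odf1, of the outer dense fibres, was 3305 TPM in wild type and 3351 TPM in the knockout (adjusted p = 0.77), and Smcp, a sperm mitochondrial capsule protein, was 5756 and 6194 TPM (adjusted p = 0.247). The summed level of the list was 48557 to 64252 TPM in heated wild type, 67029 to 77650 TPM unheated and 99665 to 120008 TPM in the heated knockout. In TPM a rise in some transcripts lowers the share left for the others, and a fall raises it. The mitochondrially encoded sum was 50213 to 62336 TPM in heated wild type and 20912 to 29391 TPM in the heated knockout. The part of either sum in the differences below was not tested beyond the scaling already named.

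**Figure D2:**
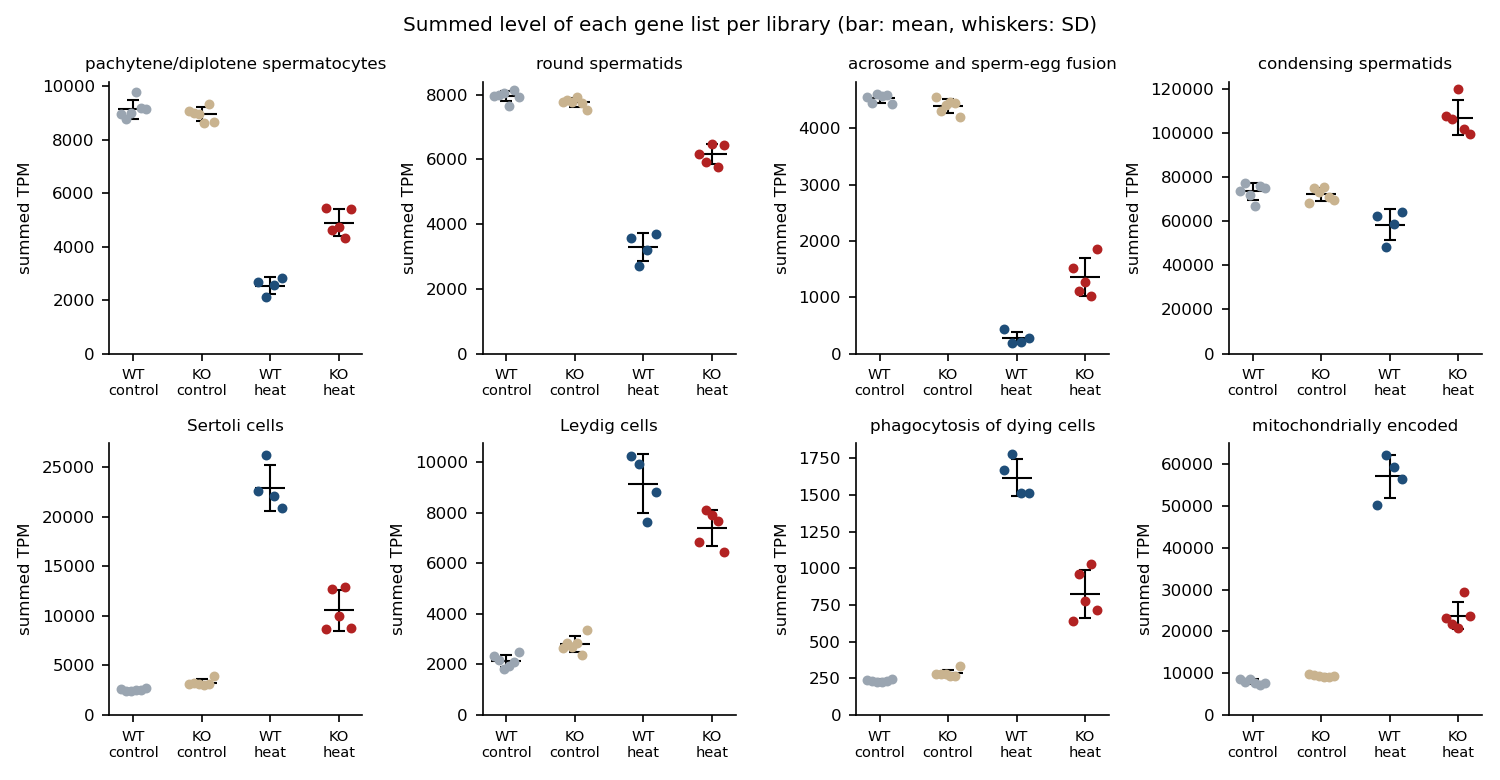
Summed TPM of 8 gene lists in each library (vertical axes, from 0), grouped as unheated control and heated wild type (WT) and knockout (KO), with mean and SD. The condensing spermatid sum is highest in the heated knockout, the round spermatid sum lies between heated wild type and controls, and the Sertoli sum is 8638 to 12857 TPM in the heated knockout against 20820 to 26227 TPM in heated wild type.

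The 8 largest rises were genes of low level in heated wild type. Ccdc185, a coiled-coil gene on chromosome 1 (182747126 to 182749180), held 16.1, 1.80, 1.63 and 2.89 TPM in wild type and 151, 123, 145, 116 and 137 TPM in the knockout. Its unheated means were 150 and 152 TPM. The difference was 4.84 ± 0.47 (adjusted p = 1.15e-05). Prss52, a serine protease of the testis, was 18.7, 3.95, 3.83 and 6.03 TPM in wild type and 211, 147, 172, 135 and 174 TPM in the knockout. Odf3, of the outer dense fibres, was 6.51 TPM in wild type and 109 TPM in the knockout, under the 227 TPM of unheated wild type, and Ccin, of the calyx of the sperm head, 14.5 and 223 TPM. Cst13 (17.5-fold), Iqcf6 (21.3-fold), Hemgn (17.5-fold) and Fhl5 (15.7-fold), a partner of the spermatid factor CREM, completed the set. For all 8 genes wild-type replicate 1 was the highest of its group, and the sizes rest on it: without that library the ratio was 63.9 for Ccdc185, 36.5 for Prss52, 41.2 for Odf3, 30.4 for Cst13, 35.3 for Iqcf6, 35.7 for Hemgn, 27.5 for Fhl5 and 29.8 for Ccin. The directions did not depend on it.

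Earlier germ cells gave a mixed picture. Of 26 pachytene and diplotene spermatocyte genes, active in the long late part of meiotic prophase, 16 were higher and 3 lower (median 0.60). Ldhc, the germ-cell lactate dehydrogenase, was 519, 214, 320 and 483 TPM in wild type and 2533, 1969, 2172, 1792 and 2433 TPM in the knockout, 5.68-fold higher and below the unheated 4504 TPM. Calr3, a germ-cell chaperone, was 8.05-fold higher. Cdk1, the kinase that drives cell division, was lower, at 135 TPM in wild type and 94.7 TPM in the knockout (-0.51 ± 0.09, adjusted p = 0.000487). Among 25 genes of the piRNA pathway, which silences transposons with small RNAs, 14 were higher and 6 lower. Gtsf1 was 75.9, 31.6, 38.7 and 52.99 TPM in wild type and 406, 297, 347, 267 and 381 TPM in the knockout. Piwil1, the PIWI protein of spermatocytes and round spermatids, was 11.1, 4.99, 13.5 and 33.3 TPM in wild type and 77.2, 68.5, 62.0, 64.3 and 78.3 TPM in the knockout. Its 4.46-fold difference was 7.12-fold without wild-type replicate 4, the highest of its group. Mov10l1, a helicase of the piRNA pathway, was 1.62-fold lower.

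Early meiotic genes showed no common direction: 7 of 29 were higher and 11 lower, and the median of -0.13 became 0.14 with median-of-ratios scaling, when 10 were higher and 6 lower. Hormad1, which marks unpaired chromosome axes, was 191, 190, 214 and 214 TPM in wild type and 123, 119, 103, 124 and 141 TPM in the knockout (-0.73 ± 0.09, adjusted p = 4.95e-05). Sycp3, an axis protein, was 344 and 258 TPM, a call lost with median-of-ratios scaling. Syce3, of the central element of the synaptonemal complex, was instead 2.55-fold higher. Undifferentiated spermatogonia genes were lower for 10 of 14, or 9 with median-of-ratios scaling, and higher for 3. Zbtb16, a factor that keeps spermatogonial stem cells undifferentiated, was 4.59, 6.11, 5.26 and 5.81 TPM in wild type and 1.90, 1.67, 1.07, 2.24 and 2.88 TPM in the knockout, 2.79-fold lower. Lin28a (2.04-fold) and Foxo1 (1.89-fold) were lower too, and Gfra1 was lower by 0.46 ± 0.16 (adjusted p = 0.0186), a call lost with median-of-ratios scaling. Pou5f1 stood against them at 1.57 TPM in wild type and 4.79 TPM in the knockout, with unheated means of 4.86 and 4.92 TPM. Differentiating spermatogonia genes split 4 higher and 4 lower of 13, with 5 higher and 2 lower under median-of-ratios scaling. Ccnd2, a cell-cycle cyclin, was 3.08-fold lower, Dmrtb1 4.76-fold higher, and Stra8, the retinoic acid target that opens meiosis, was 9.68 TPM in wild type and 13.98 TPM in the knockout (adjusted p = 0.000467). Kit was 31.1 and 26.1 TPM (adjusted p = 0.0648), a difference that passed without wild-type replicate 3 (-0.29), without knockout replicate 4 (-0.28) and with the block (-0.26), but not with median-of-ratios scaling (0.02). Of 21 histone variant and replacement genes 12 were higher, the transition proteins and protamines among them, and 6 lower, of which only H1f0 kept its call under median-of-ratios scaling. H1f0, a linker histone, was 1.39-fold lower.

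**Figure D3:**
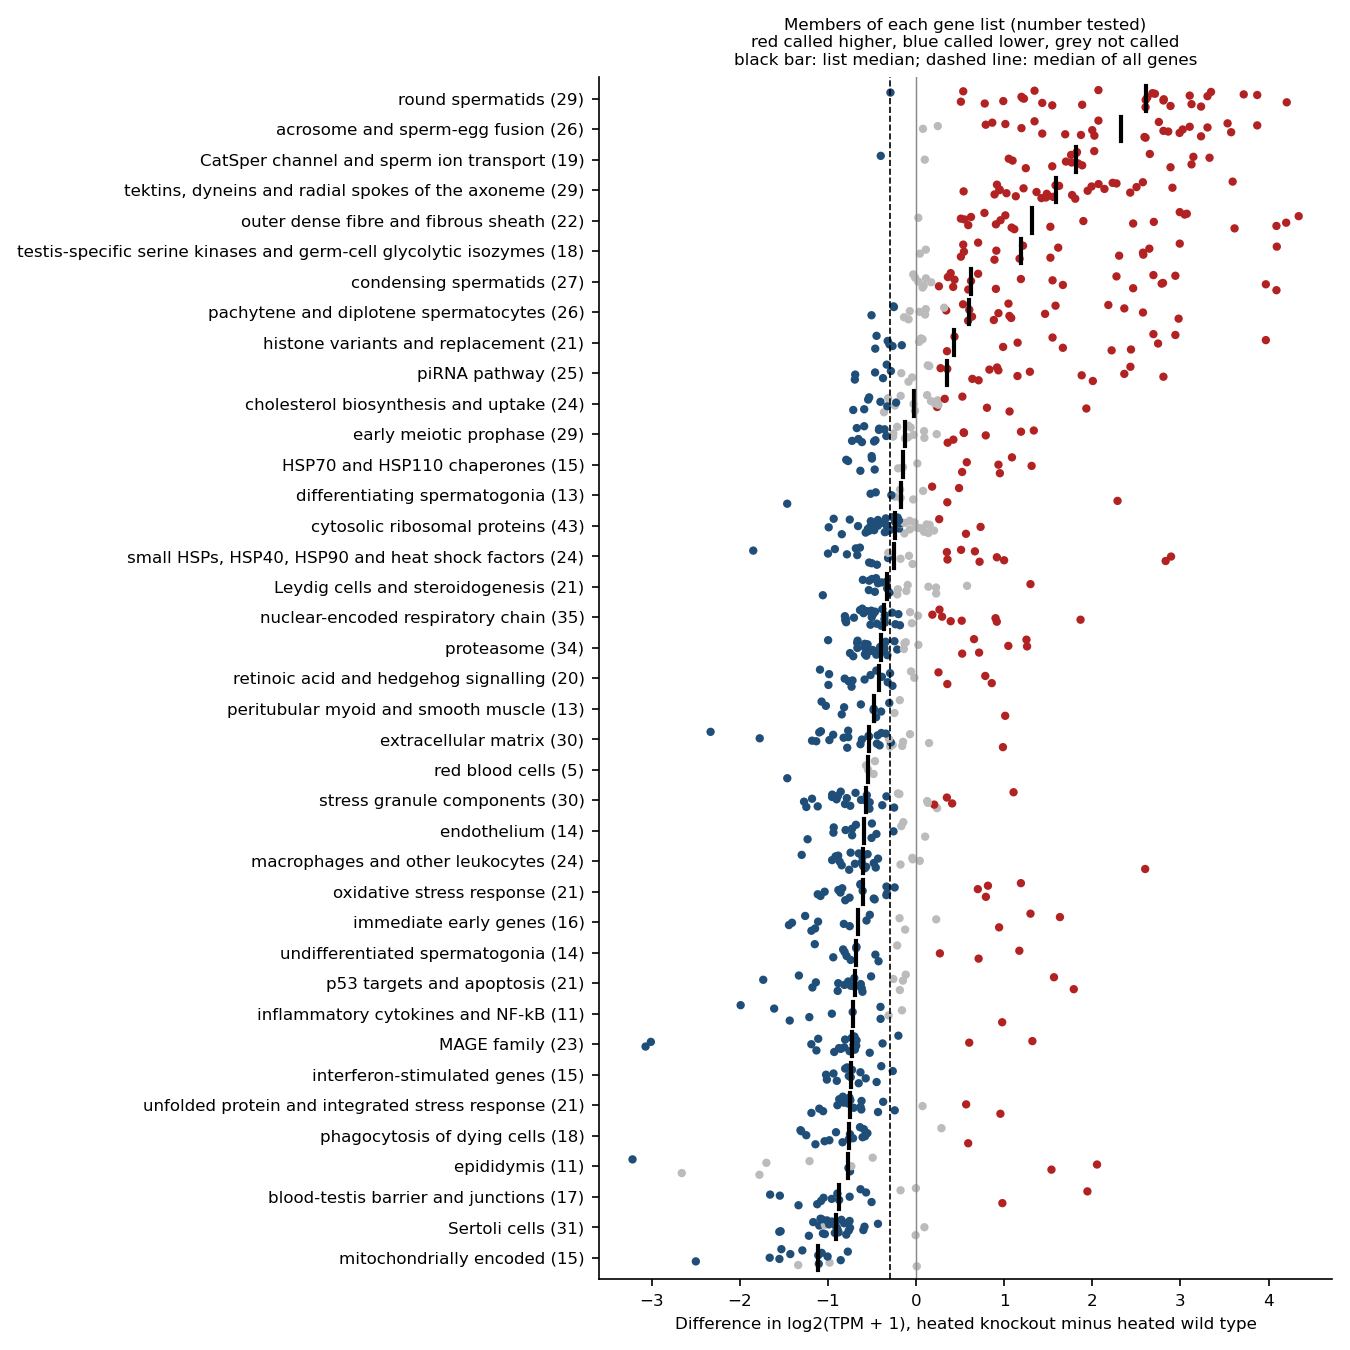
Difference in log2(TPM + 1) between heated knockout and heated wild type (horizontal axis) for each tested member of 39 gene lists (rows, number tested in brackets); red points were called higher, blue called lower, grey not called, black bars are list medians and the dashed line the median of all genes, -0.29. Spermatid lists lie to the right, with round spermatids at 2.61, and Sertoli cells at -0.91 and mitochondrially encoded genes at -1.11 lie to the left.

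Sertoli cell genes were lower in the knockout. Of 31 members 28 were called lower and none higher, with a median of -0.91, and 27 stayed lower under median-of-ratios scaling, when 1 was higher. Cst12, a cystatin on chromosome 2 (148789361 to 148793546), was 1917, 2020, 2012 and 1785 TPM in wild type and 963, 1145, 998, 1098 and 906 TPM in the knockout. Its 1.89-fold difference (-0.92 ± 0.08, adjusted p = 6.93e-06) left it above the unheated 229 and 297 TPM. Wt1, a transcription factor of Sertoli cells, was 174, 197, 167 and 157 TPM in wild type and 73.9, 92.8, 65.4, 103 and 76.0 TPM in the knockout. Sox9, the factor that sets Sertoli cell fate, was 2.00-fold lower, Gata4 1.86-fold, Rhox5 1.77-fold and Tsx 1.80-fold. Ctsl, a lysosomal protease, gave the lowest value of the list at -1.55. Amh, the hormone of immature Sertoli cells, was 5.21, 2.82, 2.44 and 2.49 TPM in wild type and 2.84, 3.57, 3.43, 2.89 and 2.79 TPM in the knockout (adjusted p = 0.976). The other members without a call were Krt18 and Hopx, of which Hopx was called higher with median-of-ratios scaling. The knockout sums spread from 8638 to 12857 TPM and did not overlap the wild-type sums, while unheated libraries summed to 2405 to 3981 TPM.

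Junctions of the blood-testis barrier, by which Sertoli cells close the tubule, were lower for 13 of 17 genes (12 with median-of-ratios scaling) and higher for 2. The shares lower over all genes were 51% as deposited and 37.2% with that scaling. Cdh2, or N-cadherin, was 48.1, 64.7, 50.9 and 49.8 TPM in wild type and 18.3, 22.4, 16.5, 26.8 and 19.5 TPM in the knockout, which is close to the unheated 25.0 and 23.9 TPM. Cldn11, the main Sertoli claudin, was 2.16-fold lower. Nectin3, which elongating spermatids carry, was 3.89-fold higher, and Cldn3 was 2.13-fold higher, or 4.05-fold without wild-type replicate 3. Receptors and ligands for the uptake of dying cells were lower for 16 of 18, or 15 with median-of-ratios scaling. Mertk, a receptor with which Sertoli cells clear germ cells, was 19.8, 20.6, 18.1 and 18.9 TPM in wild type and 8.85, 10.2, 8.47, 11.9 and 10.01 TPM in the knockout, 1.96-fold lower (adjusted p = 2.35e-05). Its bridging ligand Pros1 was 2.50-fold lower. Adgrb1, another uptake receptor, was at the low level of 0.815 TPM in wild type and 1.71 TPM in the knockout, and was called higher. The Sertoli list moved the same way, and its part in these differences was not tested. Of 20 retinoic acid and hedgehog genes 14 were lower (10 with median-of-ratios scaling) and 4 higher: Aldh1a1, a retinoic acid synthase, went from 1013 TPM to 608 TPM, and Cyp26a1, which breaks retinoic acid down, was 0.515 and 1.74 TPM.

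Leydig cell genes stayed near the median of all genes, though a smaller share of them was called. Of 21 members 12 were lower and 1 higher (51% and 29.6% of all genes), with a median of -0.33 against -0.29 over all genes. With median-of-ratios scaling 4 were lower and 3 higher (37.2% and 36.2% of all genes), at a median of -0.06. Cyp17a1, which turns progesterone into androgen precursors, was 772, 688, 479 and 645 TPM in wild type and 805, 795, 749, 679 and 707 TPM in the knockout. The groups overlapped (0.23 ± 0.12, adjusted p = 0.113), and the gene was called higher with median-of-ratios scaling (0.50) and without wild-type replicate 1 (0.32). Star, which brings cholesterol into mitochondria, was 433, 269, 198 and 195 TPM in wild type and 160, 194, 154, 199 and 149 TPM in the knockout. Its call (-0.60 ± 0.22, adjusted p = 0.0235) rested on several libraries and was lost without wild-type replicate 2 (-0.59), knockout replicate 3 (-0.57) or knockout replicate 5 (-0.56), and with median-of-ratios scaling. Insl3 was 3816 and 3051 TPM (adjusted p = 0.0415), and its call was lost with median-of-ratios or quantile scaling (-0.06 and -0.26), under the block (-0.25), and without wild-type replicates 1, 2 or 4 (-0.27, -0.30 and -0.32) or knockout replicates 1 or 5 (-0.27 and -0.25). Cyb5a, which helps CYP17A1, was lower by 1.06 ± 0.12 (adjusted p = 2.89e-05) and Hsd3b1 by 0.54 ± 0.09. Nr4a1, also on the immediate early list, was 5.88 TPM in wild type and 15.8 TPM in the knockout, with 24.2 TPM in unheated wild type. For cholesterol synthesis and uptake 6 of 24 were higher and 7 lower, against 11 higher and 4 lower with median-of-ratios scaling. Fdft1, squalene synthase, was 3.87-fold higher, still under the 237 TPM of unheated wild type, while Ebp and Nsdhl were 1.51-fold and 1.48-fold lower.

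Genes of the other interstitial and vessel cells were mostly lower as deposited. Of all genes 51% were lower as deposited and 37.2% with median-of-ratios scaling. Peritubular myoid and smooth muscle genes were lower for 10 of 13, but for 5 with median-of-ratios scaling, near the share of all genes. That scaling ended the calls of Acta2 (114 and 82.2 TPM as deposited) and Myh11 (18.2 and 12.7 TPM). The summed levels of this list overlapped, at 997 to 1139 TPM in wild type and 891 to 1100 TPM in the knockout. Tpm1 was 2.12-fold lower under the deposited scale, and Actg2, a smooth muscle actin that stood at 446 TPM in unheated wild type, was 2.00-fold higher. Endothelial genes were lower for 11 of 14, or 8 with median-of-ratios scaling. Cdh5, the cadherin of vessel walls, was 17.7, 19.6, 14.9 and 17.1 TPM in wild type and 5.05, 8.71, 5.63, 9.17 and 6.12 TPM in the knockout. Extracellular matrix genes were lower for 22 of 30 and higher for 1, Col15a1, and 16 were lower with median-of-ratios scaling. Sparc, a matrix glycoprotein that Sertoli and Leydig cells also make, was 2160, 2565, 2190 and 2187 TPM in wild type and 832, 1270, 1072, 1357 and 864 TPM in the knockout, 2.11-fold lower (adjusted p = 6.61e-05).

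Macrophage and other leukocyte genes were lower for 19 of 24, or 13 with median-of-ratios scaling, and higher for 1. Over all genes the shares lower were 51% and 37.2%. Mrc1, a scavenger receptor of resident macrophages, was 68.1, 86.0, 69.6 and 65.9 TPM in wild type and 27.6, 31.5, 23.2, 34.5 and 27.8 TPM in the knockout, 2.50-fold lower. Csf1r, the growth factor receptor of macrophages, was 1.58-fold lower, Adgre1 1.82-fold and Cd68 1.73-fold. Aif1 stood against them at 211, 95.1, 133 and 176 TPM in wild type and 1046, 860, 948, 778 and 878 TPM in the knockout. It was 793 TPM in unheated wild type, and it is included in the summed level of the leukocyte list, which was 1336 to 1590 TPM in the knockout and 920 to 1189 TPM in wild type.

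All 15 interferon-stimulated genes tested were lower, 11 of them with median-of-ratios scaling. Ifi27 was 184, 241, 174 and 192 TPM in wild type and 104, 115, 108, 111 and 87.3 TPM in the knockout, 1.88-fold lower (adjusted p = 4.19e-05), and Ifih1, a sensor of double-stranded RNA, was 2.44-fold lower. Of 11 cytokine and NF-kB genes 8 were lower, or 7 with median-of-ratios scaling. Cxcl1, which draws neutrophils, was 2.82, 5.43, 3.77 and 3.60 TPM in wild type and 0.41, 1.34, 0.65, 1.23 and 0.48 TPM in the knockout, and Il1a was 4.02-fold lower. Ccl5 was higher, at 2.04 TPM in wild type and 4.97 TPM in the knockout. Immediate early genes were lower for 10 of 16 and higher for 3 (51% and 29.6% of all genes), and for 9 and 4 with median-of-ratios scaling. Egr1 was 10.4, 11.8, 10.5 and 10.4 TPM in wild type and 3.89, 4.74, 3.82, 6.15 and 3.39 TPM in the knockout, and Klf6 was 2.45-fold lower. Of 5 red blood cell genes only Alas2, the first enzyme of haem synthesis in red cells, passed the test (2.74-fold lower). Hbb-bs was 317 and 205 TPM with overlapping libraries (adjusted p = 0.202).

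Leaving out the targeted locus, the 8 largest falls were genes at most 1.62 TPM on average in unheated wild type. Chst11, which sulfates chondroitin, was 7.83, 19.5, 10.5 and 10.9 TPM in wild type and 0.67, 2.00, 0.85, 2.64 and 0.59 TPM in the knockout, 9.02-fold lower (-2.50 ± 0.30, adjusted p = 3.61e-05). Unheated testes held 0.312 TPM in wild type. Timp1, an inhibitor of matrix proteases, was 92.8, 199, 138 and 145 TPM in wild type and 21.3, 45.6, 27.9, 45.8 and 10.6 TPM in the knockout, against 1.41 TPM in unheated wild type. The knockout libraries themselves differed: replicates 2 and 4 held the higher values of Chst11, Timp1, Mpzl2, Lrrc2, Padi2 and Scn3b. Mpzl2 was 8.16-fold lower, Lrrc2 5.84-fold, Padi2, which turns protein arginine into citrulline, 4.18-fold and Scn3b, a sodium channel subunit, 5.36-fold. Spink8 and Defb37 have the largest of these 8 falls only through the wild-type library with epididymal transcripts. Spink8 was 11.5, 18.0, 1280 and 17.1 TPM in wild type and 4.10, 6.68, 3.65, 4.50 and 2.79 TPM in the knockout, and without wild-type replicate 3 it was 3.57-fold lower rather than 76.4-fold. Defb37 was 2.33, 3.18, 325 and 4.48 TPM in wild type and at most 2.17 TPM in the knockout, 3.48-fold lower without that library. Its call (adjusted p = 0.0458) was lost with median-of-ratios scaling (-2.64), under the block (-2.75), and without each knockout library in turn. Crisp1, Adam7 and Rnase9 were not called.

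G3bp1 and G3bp2, whose proteins bind RNA and seed stress granules and which the series title concerns, were both lower in the heated knockout. G3bp1 was 32.3, 33.4, 28.6 and 31.1 TPM in wild type and 18.4, 21.2, 17.4, 21.8 and 21.1 TPM in the knockout (-0.63, 2-sided exact permutation p = 0.00794, adjusted 0.00794). G3bp2 was 156, 172, 152 and 138 TPM in wild type and 81.5, 87.2, 65.1, 94.1 and 84.0 TPM in the knockout (-0.90, same p). The groups did not overlap for either gene, which held for 73.2% of all genes tested, 45.8% being lower. Median-of-ratios scaling reduced the differences to -0.36 and -0.63. These are transcript levels, and no protein was measured in these libraries. Of the 30 stress granule genes on the list 21 were lower and 4 higher (51% and 29.6% of all genes), with a median of -0.57. With median-of-ratios scaling 18 were lower and 7 higher (37.2% and 36.2% of all genes). Hdac6, which carries granule components along microtubules, was 223, 264, 228 and 213 TPM in wild type and 87.7, 112, 90.0, 131 and 92.5 TPM in the knockout. The RNA-binding protein gene Fmr1 (-1.27) and the helicase Ddx3x (-1.25) had the lowest values of the list. Ybx1, a messenger RNA-packing protein abundant in germ cells, was 272 TPM in wild type and 586 TPM in the knockout, with 1087 TPM in unheated wild type. The Sertoli and spermatid lists moved in these libraries as well, and their part in the stress granule differences was not tested.

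Heat shock genes had no common direction. Of 15 HSP70 and HSP110 genes 6 were higher and 6 lower (29.6% and 51% of all genes). Hspa8, the constitutive HSP70, was 677, 843, 731 and 724 TPM in wild type and 389, 470, 401, 452 and 429 TPM in the knockout, and Hspa5, the HSP70 of the endoplasmic reticulum, was 1.70-fold lower. Hspa1l, the HSP70 of spermatids, was 302, 214, 287 and 348 TPM in wild type and 761, 697, 701, 674 and 691 TPM in the knockout, 2.45-fold higher and above the 504 TPM of unheated wild type. The classical heat-inducible genes were low and did not pass: Hspa1a was at most 1.71 TPM and Hspa1b at most 2.96 TPM in any heated library. Among 24 small heat shock, HSP40, HSP90 and heat shock factor genes 9 were higher and 11 lower. With median-of-ratios scaling 9 were higher and 9 lower, near the shares of all genes (36.2% and 37.2%). Hsp90b1, of the endoplasmic reticulum, was 1.72-fold lower and Hspd1, the mitochondrial chaperonin, 1.90-fold lower. Dnajb13, a radial spoke protein, was 7.08-fold higher. Of the 21 genes that respond to unfolded proteins or to integrated stress signalling, 18 were lower (15 with median-of-ratios scaling) and 2, Asns and Herpud1, higher. Pdia4 was 111, 119, 118 and 108 TPM in wild type and 59.7, 67.5, 56.9, 71.6 and 65.6 TPM in the knockout.

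Of 21 p53 target and apoptosis genes 15 were lower and 2 higher, as deposited and with median-of-ratios scaling. Over all genes 51% were lower and 29.6% higher as deposited, and 37.2% and 36.2% with that scaling. Casp8, the starter of receptor-driven cell death, was 22.4, 28.9, 24.0 and 21.7 TPM in wild type and 9.34, 11.9, 9.87, 12.3 and 7.75 TPM in the knockout, 2.37-fold lower. Sesn1 was 1.64-fold lower. Tnfrsf10b, a death receptor, and Bcl2l11, which encodes the death-promoting BIM, were higher: the former was 1.70, 1.85, 1.61 and 1.53 TPM in wild type and 7.51, 6.91, 6.40, 6.97 and 6.73 TPM in the knockout, and the latter was 3.56-fold higher. Unheated wild type held 6.35 TPM of Tnfrsf10b and 65.2 TPM of Bcl2l11. Oxidative stress genes were lower for 17 of 21, or 13 with median-of-ratios scaling. Nfe2l2, the factor NRF2 that turns these genes on, was 2.09-fold lower and its target Prdx1 1.85-fold lower, while Srxn1 was 1.79-fold higher.

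The MAGE family as a whole was lower. Besides the targeted gene and its pseudogene, 19 of the 21 other members tested were called lower and 2 higher (median of all 23 -0.73, and 19 of all 23 lower with median-of-ratios scaling), where X-linked genes in general were low (next paragraph). Magea3 was 10.04, 10.26, 10.67 and 10.38 TPM in wild type and 3.51, 3.85, 4.11, 4.75 and 4.76 TPM in the knockout, 2.46-fold lower. Mageb18 was 2.43-fold lower and Maged2, a widely expressed member, 2.14-fold lower. Unheated wild type held 0.853 TPM of Magea3. Mageb5 went the other way, with 0.60, 0.15, 0.37 and 0.50 TPM in wild type and 3.27, 1.89, 2.16, 1.80 and 3.67 TPM in the knockout. Its unheated means were 7.78 and 6.98 TPM. Mageb3 was the other member called higher (0.60).

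By chromosome, X stood apart from the autosomes. Of 840 X-linked genes tested 576 were lower (68.6%) and 167 higher, with a median of -0.65, and of 17320 autosomal genes 8705 were lower (50.3%) and 5175 higher, with a median of -0.28. With median-of-ratios scaling the X median was -0.43. X is silenced in meiosis and stays partly silent in spermatids, while somatic cells and spermatogonia read it, and markers of both moved in these libraries. Their part in the X-linked differences was not tested. The X-linked extremes, chosen after their values were seen, were spermatid genes at one end: H2al3, a histone variant, was 14.7-fold higher and Cypt1, a spermatid nuclear protein, 12.3-fold, or 22.4-fold and 18.6-fold without wild-type replicate 1. At the other end were Timp1 (4.75-fold lower), Scml1 (3.98-fold) and Ccnb3, a meiotic cyclin (3.87-fold). Among the autosomes, chromosome 14 had the highest median, -0.07, with 287 of 729 genes higher.

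**Figure D4:**
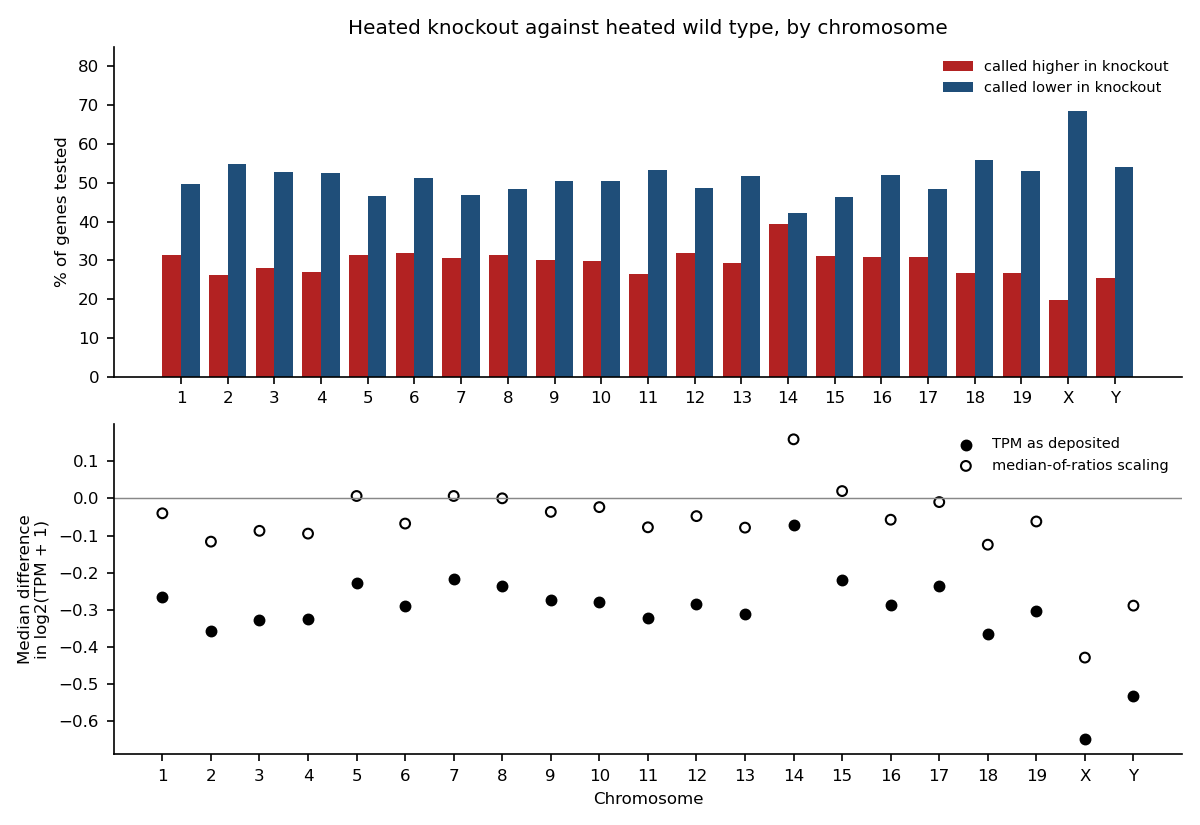
Upper panel, percent of tested genes called higher or lower in the heated knockout for each chromosome (bars from 0); lower panel, median difference in log2(TPM + 1) on deposited TPM (filled) and with median-of-ratios scaling (open). Of X, Y and the autosomes, X has the lowest median on both scales, -0.65 and -0.43, and chromosome 14 the highest, -0.07 and 0.16.

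Transcripts of the mitochondrial genome were lower for 12 of 15 genes and higher for none, with a median of -1.11. mt-Co1, a subunit of cytochrome oxidase, was 12784, 14584, 14579 and 14614 TPM in wild type and 6675, 6034, 5691, 7856 and 6764 TPM in the knockout, 2.14-fold lower (adjusted p = 6.00e-06). mt-Rnr2, a mitochondrial ribosomal RNA, was 2.85-fold lower. The 15 genes together took 50213 to 62336 TPM in heated wild type, 20912 to 29391 TPM in the heated knockout and 7190 to 9872 TPM unheated. 4 of the 15, namely mt-Atp6, mt-Atp8, mt-Co2 and mt-Co3, stood at or near 0 in most libraries. Such values can be failed estimates, so no fold is given, and 1 of these 4, mt-Co3, is among the 12 called. Nuclear genes of the respiratory chain stayed near the median of all genes (-0.36 against -0.29). Of 35 members 24 were lower and 8 higher (51% and 29.6% of all genes). With median-of-ratios scaling 14 were lower and 10 higher (37.2% and 36.2% of all genes). Cycs, the somatic cytochrome c, was 1.74-fold lower, and Cox8c, a germ-cell subunit, was 69.4, 41.5, 62.5 and 117 TPM in wild type and 274, 239, 261, 210 and 272 TPM in the knockout.

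For the proteasome 24 of 34 genes were lower and 6 higher (51% and 29.6% of all genes), or 15 and 8 with median-of-ratios scaling. Psmd14 was 1.60-fold lower, while Psme3, an activator of the proteasome, was 122, 113, 116 and 129 TPM in wild type and 338, 264, 277, 269 and 288 TPM in the knockout, above the 201 TPM of unheated wild type. Psma8, the germ-cell subunit, was 1.65-fold higher, and its common counterpart Psma7 1.68-fold lower. Ribosomal protein genes were lower for 27 of 43 and higher for 3, with a median of -0.24 against -0.29 over all genes, and 11 were lower and 10 higher with median-of-ratios scaling (37.2% and 36.2% of all genes). The 3 called higher as deposited were Rps4l, Rpl10l and Rpl39l. Rpl10l, the germ-cell copy, was 1.48-fold higher and X-linked Rpl10 1.80-fold lower; Rpl39l was 1.65-fold higher and Rpl39 2.00-fold lower. Reads of such near-identical copies can be split in the authors' quantification, so these levels are uncertain.

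In 482 genes all 5 heated knockout values lay above all 16 other libraries (2.61%), and in 755 they lay below all of them (4.09%). The condensing spermatid list had 10 of its 27 genes above the rest, among them Prm1, Prm2, Tnp1, Tnp2, Odf2 and Akap4, and none below. The tektin, dynein and radial spoke list had none in either direction. The largest gaps above were those of Spata32, Hmgb1-rs17, Defb33, H2al2a and Paqr5. Defb33, a defensin gene, was 80.6, 49.7, 78.6 and 86.9 TPM in heated wild type, 135 TPM in unheated wild type and 282, 244, 240, 225 and 272 TPM in the heated knockout. H2al2a, a histone variant of condensing spermatids, was 459 TPM in heated wild type, 586 TPM in unheated wild type and 1011 TPM in the heated knockout. Below the rest were Inpp5a, Extl2, Dapp1, Slco3a1 and Slc35a3. Dapp1, a signalling adaptor, was 21.3, 28.0, 22.1 and 22.6 TPM in heated wild type, 47.5 TPM in unheated wild type and 13.5, 12.2, 12.2, 13.5 and 15.1 TPM in the heated knockout. Slco3a1, a membrane transporter, stood at 34.8 TPM in heated wild type, 36.9 TPM in unheated wild type and 19.1 TPM in the heated knockout.

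Genes that differed between the genotypes without heat were looked up after heat, in libraries that do not overlap with the first set. Without heat 1140 genes were higher in the knockout (6.19% of 18407 tested) and 128 lower (0.695%), together 6.89%, counts that depend on scaling and on single libraries. Of the 1134 unheated rises tested after heat, 1029 were lower in the heated knockout (90.7%, against 51% of all genes) and 48 higher, with a median of -0.81. Of 111 unheated falls, 85 were higher after heat (76.6%, against 29.6% of all genes) and 8 lower. Fabp5, a fatty acid carrier, showed it: 8.71 TPM in wild type and 12.7 TPM in the knockout without heat, but 129, 160, 128 and 124 TPM in wild type and 42.6, 68.8, 47.3, 69.1 and 44.1 TPM in the knockout after heat. Ly6e was 83.3 and 116 TPM without heat, and 687 and 351 TPM after it. Nmnat3, a mitochondrial NAD-making enzyme on chromosome 9 (98287435 to 98420438), was lower in the knockout both times: 48.8 and 34.7 TPM without heat, and 37.4 and 27.0 TPM after it (-0.46 ± 0.09, adjusted p = 0.000627, a call lost with median-of-ratios scaling). Apoc1 (444 and 318 TPM after heat) and Npepl1 (31.4 and 25.5 TPM) were lower after heat and lost their calls with median-of-ratios scaling, Npepl1 also with quantile normalization. Ces1d was 96.6 and 80.5 TPM (adjusted p = 0.0405). Its call was lost without wild-type replicates 1, 2 or 3 (-0.21, -0.26 and -0.26) and without knockout replicates 1, 3 or 4 (-0.28, -0.20 and -0.23), and the sign turned with median-of-ratios scaling (0.0065). Tsku (adjusted p = 0.525) and Efnb1 (adjusted p = 0.598) did not pass.

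**Figure D5:**
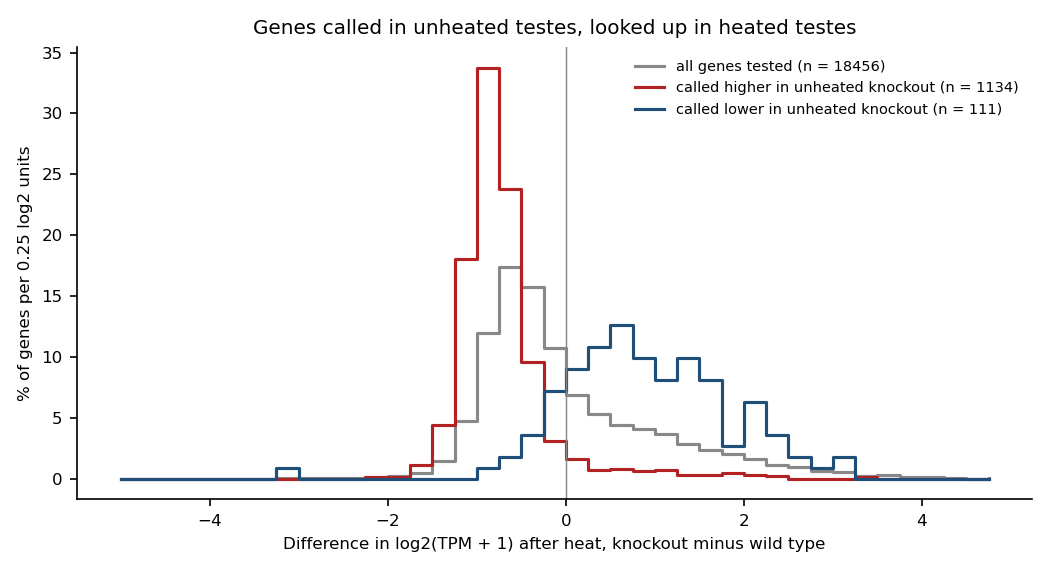
Share of genes (vertical axis, percent per bin) by their difference in log2(TPM + 1) after heat (horizontal axis), for all genes tested (grey), genes called higher (red) and genes called lower (blue) in the unheated knockout. Genes higher without heat pile up to the left of 0, with 90.7% called lower after heat, and genes lower without heat lie mostly to the right, with 76.6% called higher.

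Promoters of the differing genes were searched for 6 motifs, on both strands of the 300 bases from 250 before to 50 after each start site (RefSeq, GRCm38.p6; 15967 promoters of 12616 genes tested). The X-box, which RFX factors bind in genes of the tail and cilia, was in 1.31% of promoters of genes at least 2-fold higher in the knockout (32 of 2439), in 0.0915% of those at least 2-fold lower (1 of 1093) and in 0.501% of all. The MYB motif AACTGNCA, bound by the spermatocyte factor A-MYB, was in 6.52%, 3.93% and 3.51%. The CRE TGACGTCA, the site of CREM, was in 2.34%, 1.83% and 2.77%. The heat shock element was in 0.902%, 0.183% and 0.557%. The interferon response element was in 0.615%, 1.28% and 0.714%, and in 7 of 13 promoters of the interferon-stimulated list. The androgen response element was in 1 promoter of all. A match describes the letters only, and binding was not measured. Matches of 1 motif may overlap each other or those of another. Rfx2 (1.22) and Crem (0.78), both on the round spermatid list, were higher in the knockout. Their part in the motif shares was not tested.

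The X-box promoters shown are of the 4 largest rises among genes considered that hold it in the 250 bases before the start site. Predicted and clone names and all genes of an autosome were not considered, so larger rises there may be missing. Each promoter is given as these 250 bases, 5′ to 3′, with the match in capitals. Tex33, a spermatid gene on chromosome 15 (chr15:78395913-78396162, minus strand), averaged 51.6 ± 29.3 TPM (SD, n = 4) across the wild types but 489 ± 76.7 TPM (SD, n = 5) across the knockouts. Fndc11 lies on chromosome 2 (chr2:181219784-181220033, plus strand), and its match reads as an X-box on both strands. It was 8.43-fold higher, or 18.3-fold without wild-type replicate 1. Mapre3, which binds the growing ends of microtubules, lies on chromosome 5 (chr5:30814391-30814640, plus strand) and was 31.4 ± 12.4 and 257 ± 35.6 TPM. Cep112, a centrosome protein, lies on chromosome 11 (chr11:108425016-108425265, plus strand) and was 56.9 ± 17.5 and 277 ± 36.8 TPM.
Tex33: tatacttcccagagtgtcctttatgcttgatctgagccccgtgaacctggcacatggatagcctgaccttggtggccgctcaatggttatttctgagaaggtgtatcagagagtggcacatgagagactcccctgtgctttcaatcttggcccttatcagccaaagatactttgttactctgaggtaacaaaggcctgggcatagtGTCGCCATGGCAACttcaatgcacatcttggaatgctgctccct
Fndc11: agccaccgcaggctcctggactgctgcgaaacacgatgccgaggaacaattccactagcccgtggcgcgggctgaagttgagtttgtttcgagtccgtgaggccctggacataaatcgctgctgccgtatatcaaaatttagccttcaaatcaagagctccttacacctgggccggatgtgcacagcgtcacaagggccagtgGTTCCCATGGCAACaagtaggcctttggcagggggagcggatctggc
Mapre3: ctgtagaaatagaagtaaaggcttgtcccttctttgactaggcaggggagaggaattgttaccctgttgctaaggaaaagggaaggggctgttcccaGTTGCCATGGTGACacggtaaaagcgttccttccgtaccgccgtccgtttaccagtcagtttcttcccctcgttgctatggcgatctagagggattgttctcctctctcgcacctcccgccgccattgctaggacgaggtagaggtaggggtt
Cep112: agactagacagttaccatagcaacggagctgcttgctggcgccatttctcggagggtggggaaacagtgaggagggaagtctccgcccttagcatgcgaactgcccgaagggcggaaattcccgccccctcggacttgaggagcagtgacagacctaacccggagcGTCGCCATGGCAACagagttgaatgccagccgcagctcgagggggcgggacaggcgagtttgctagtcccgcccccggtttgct

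The MYB promoters shown are those of the 3 largest rises by the same rule. Dusp13, a phosphatase, on chromosome 14 (chr14:21748623-21748872, minus strand), was 10.6 ± 10.2 TPM in wild type and 170 ± 25.2 TPM in the knockout, 15.97-fold higher, or 30.5-fold without wild-type replicate 1. Tmigd3 lies on chromosome 3 (chr3:105870608-105870857, plus strand) and was 16.04 ± 10.5 and 217 ± 43.3 TPM. Ttc23l lies on chromosome 15 (chr15:10558670-10558919, minus strand) and was 11.4 ± 6.91 and 119 ± 21.9 TPM.
Dusp13: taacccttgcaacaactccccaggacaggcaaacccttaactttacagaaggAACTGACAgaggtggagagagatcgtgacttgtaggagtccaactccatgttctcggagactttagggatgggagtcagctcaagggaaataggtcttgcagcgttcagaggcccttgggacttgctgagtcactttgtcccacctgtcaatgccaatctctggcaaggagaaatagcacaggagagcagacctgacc
Tmigd3: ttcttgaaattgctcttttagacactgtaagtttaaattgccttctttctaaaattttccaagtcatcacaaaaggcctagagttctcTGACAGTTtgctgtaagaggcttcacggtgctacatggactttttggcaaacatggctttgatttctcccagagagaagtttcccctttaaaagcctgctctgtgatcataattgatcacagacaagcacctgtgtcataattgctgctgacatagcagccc
Ttc23l: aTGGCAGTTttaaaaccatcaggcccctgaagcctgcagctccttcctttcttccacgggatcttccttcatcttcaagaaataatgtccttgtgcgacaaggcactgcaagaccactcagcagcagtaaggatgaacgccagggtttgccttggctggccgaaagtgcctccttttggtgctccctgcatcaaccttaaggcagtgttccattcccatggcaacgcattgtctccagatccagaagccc

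For the falls, promoters are shown of the 3 interferon-stimulated genes with the largest falls among those with an interferon response element in the 250 bases before the start site. The promoter of Hspd1, chosen by name, is shown for the heat shock element. That element was rarer in promoters of genes at least 2-fold lower (0.183%) than in those at least 2-fold higher (0.902%). The differences were -0.78 for Stat2, -0.76 for Ifit3, -0.65 for Bst2 and -0.92 for Hspd1, all smaller than 2-fold. Stat2, which carries the interferon signal to the nucleus, on chromosome 10 (chr10:128270248-128270497, plus strand), was 12.5 ± 2.20 TPM in wild type and 6.79 ± 0.503 TPM in the knockout. Ifit3 on chromosome 19 (chr19:34583279-34583528, plus strand) has 2 matches and was 6.83 ± 1.68 and 3.55 ± 0.398 TPM. Bst2, which tethers enveloped viruses to the cell, on chromosome 8 (chr8:71537473-71537722, minus strand), was 29.2 ± 4.26 and 18.2 ± 2.55 TPM. Hspd1 on chromosome 1 (chr1:55087933-55088182, minus strand) has 2 overlapping matches and was 186 ± 16.6 and 97.9 ± 10.2 TPM.
Stat2: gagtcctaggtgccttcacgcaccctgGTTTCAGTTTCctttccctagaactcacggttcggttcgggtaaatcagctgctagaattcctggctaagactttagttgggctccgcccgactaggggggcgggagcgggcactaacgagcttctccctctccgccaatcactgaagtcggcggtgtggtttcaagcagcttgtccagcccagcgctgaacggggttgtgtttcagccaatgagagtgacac
Ifit3: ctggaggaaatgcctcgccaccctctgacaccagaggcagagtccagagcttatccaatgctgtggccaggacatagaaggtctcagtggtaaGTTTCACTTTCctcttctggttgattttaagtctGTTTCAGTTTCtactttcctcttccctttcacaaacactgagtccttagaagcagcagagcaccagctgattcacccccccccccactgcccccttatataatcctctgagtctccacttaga
Bst2: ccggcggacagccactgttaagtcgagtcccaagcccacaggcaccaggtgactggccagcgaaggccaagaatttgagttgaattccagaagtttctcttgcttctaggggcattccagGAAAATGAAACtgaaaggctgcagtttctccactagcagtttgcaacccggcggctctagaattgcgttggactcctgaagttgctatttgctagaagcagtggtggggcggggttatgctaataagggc
Hspd1: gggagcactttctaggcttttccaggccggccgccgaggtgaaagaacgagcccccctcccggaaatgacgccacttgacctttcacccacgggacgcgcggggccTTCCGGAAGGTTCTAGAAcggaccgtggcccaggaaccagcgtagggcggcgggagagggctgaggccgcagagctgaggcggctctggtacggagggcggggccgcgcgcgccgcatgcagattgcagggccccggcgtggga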

How the data were processed

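RNA was extracted with Trizol and poly(A)-selected stranded libraries were sequenced on an Illumina instrument, per the labels' protocols. The submitters' processing notes name STAR and mm10, and the annotation and quantifier were not given in the sources used here. TPM were computed and deposited by the authors. They keep no depth, so counting error is unknown and precision was taken from the replicates: the median SD of log2(TPM + 1) was 0.149 in heated wild type and 0.177 in heated knockout.

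Genes averaging 1 TPM or more in the 9 heated libraries were fitted with limma 3.58.1 (R 4.3.3, trend, pseudocount 1 TPM), without a replicate block, since the labels give only numbers. Errors of differences are moderated SE. The same model was fitted to the unheated libraries, and the interaction to all 21. Code was tested on simulated data. Chromosomes and coordinates came from the GENCODE annotation of mm10. Of 55453 symbols, 117 stood on more than 1 entry and were kept apart. Alternatives were another pseudocount, filter or scaling, no mitochondrial genes, all libraries in 1 fit, the block and each library left out.

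The genes named were the targeted and title genes, the 8 largest rises and falls (mean of at least 5 TPM, no overlap, same call without wild-type replicate 3, no predicted or clone names), the 2 called members of each list with the largest moderated t along its median and the 1 against it, the 8 largest unheated differences, the 5 most extreme outside all other libraries in each direction and preset cell markers; further members were named after their values were seen. The members and lists were chosen with earlier results of these data known. P-values measure the spread between these libraries.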

Additional observations from a re-analysis of the deposited data

Results flagged for a closer look

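Single libraries stood apart within their group for 27 of 342 groups of values tested over 171 named genes, and chance flags about 1 in 20 groups. Heated wild-type replicate 1 held the highest Acrv1 (27.65 TPM), Calr3 (23.05), Ccdc185 (16.11), Ccin (35.61) and Cdyl (38.01 TPM). It also held the highest Hemgn (14.57 TPM), Iqcf6 (8.37), Odf3 (18.12) and Prss52 (18.73 TPM). The same library held the highest Amh, 5.21 TPM, and the lowest mt-Co1, 12783.5 TPM. The round and condensing spermatid sums were instead highest in wild-type replicate 4, at 3693 and 64252 TPM against 3569 and 62441 TPM in replicate 1. Heated wild-type replicate 2 held the highest Cdh2 (64.66 TPM), Egr1 (11.78 TPM), Fabp5 (160.37 TPM), Inpp5a (38.97 TPM) and Sparc (2565.07 TPM), and the lowest H2al2a (342.94 TPM). Heated wild-type replicate 3 held the highest Crisp1 (2125.82 TPM), Spink8 (1280.14 TPM), Defb37 (324.66 TPM), Adam7 (136 TPM) and Lcn5 (4.19 TPM).

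Among the heated knockouts, replicate 1 held the highest Crisp1 (0.62 TPM) and Adam7 (0.06 TPM), both close to 0. Replicate 3 held the lowest Hsp90b1, 350.76 TPM, and replicate 5 the highest Mov10l1, 42.2 TPM, and Spaca1, 65.48 TPM. The genotype difference itself differed between heated and unheated testes, by the interaction test of limma, in 15049 genes.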

How the results depend on the processing

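After heat, the counts of genes called stayed within 1.5 times of those reported under every alternative run. Leaving out each library in turn gave 5225 to 5514 higher and 8813 to 9350 lower genes, and 4982 to 5393 and 8520 to 8880 with no overlap, and the interaction without wild-type replicate 3 called 15056. The labels do not say whether the shared replicate numbers pair the samples. Deviations of same-numbered libraries from their group means correlated at 0.16, 0.30, 0.007 and -0.16. These correlations were not tested and cannot decide whether the samples were paired. With the replicate block 5257 genes were higher and 9015 lower. The differences of Mageb4, G3bp1 and G3bp2 ranged from -3.02 to -3.00, -0.67 to -0.58 and -0.96 to -0.82 with a library left out.

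The unheated counts moved. With no filter 517 genes were higher and 65 lower, with median-of-ratios scaling 694 and 268, and with quantile normalization 557 and 236. Leaving out a library gave 498 to 1395 higher and 45 to 165 lower, the lowest of both without wild-type control replicate 3. The higher count moved by over 1.5 times also without wild-type control replicates 2 (612) and 5 (555) and knockout control replicate 6 (699), and the lower count without wild-type control replicates 1 (70), 2 (52) and 5 (60) and knockout control replicates 2 (66), 3 (73) and 6 (81). The cause was not tested. Among single genes and lists, Ces1d turned to 0.0065 with median-of-ratios scaling, and 47 of the other values lost a call, 7 gained one, 45 moved, and 4072 kept their direction and call or, for lists, stayed close to the value reported. The mitochondrially encoded list has no value without mitochondrial genes. Without the filter the calls of Spink8, Defb37, Hvcn1, Star, Insl3, Ces1d and Prm2 were lost. TPM keep no depth, so no limit of detection can be given for genes near 0.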

Other observations

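Adipoq, the fat cell hormone, was 1.27, 0.94, 0.97 and 0.50 TPM in heated wild type and 10.8, 5.23, 8.41, 4.43 and 7.68 TPM in the heated knockout. All knockout libraries were above all wild-type ones, and unheated wild type held 10.8 TPM. Plin1, another fat cell gene, was 2.79 TPM in heated wild type and 3.12 TPM in the heated knockout (limma adjusted p = 0.474). Defb21, a defensin gene on the epididymal list, was 1.39, 0.42, 1.5 and 0.63 TPM in heated wild type and 9.78, 5.27, 8.60, 4.36 and 8.42 TPM in the heated knockout, and Cst8, a cystatin on the same list, was 2.91-fold higher. For both genes the wild-type library that held Crisp1 lay below all 5 knockout libraries.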
